A study of Mus musculus with 6 samples.

Results

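A set of 10 genes of T cells and natural killer (NK) cells were followed as a measure of lymphocyte transcripts in sorted mouse haematopoietic stem cells (HSCs): Cd3d, Cd3e, Cd3g, Trac, Trbc2, Cd8a, Cd4, Nkg7, Gzma and Klrd1. Each of the 10 symbols matched 1 row of the count tables, which list 49585 genes. The series compared HSCs with high and with low surface CD38, an enzyme that consumes NAD, from untreated C57BL/6 mice aged 8 to 16 weeks. Cells of bone marrow were sorted as lineage-negative, Kit+, Sca-1+, CD48-, CD150+, CD34- and CD201+, and then divided by CD38; both groups share all of these gates. There were 3 CD38-positive and 3 CD38-negative libraries, each from the pooled HSCs of 10 mice, and the design text pairs them as 1 library of each kind in 3 pairs. The antibodies of the lineage panel are not named in the sources used here.

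T cells recognise antigen through a receptor whose alpha and beta chains end in constant regions encoded by Trac and by Trbc1 or Trbc2, and which signals through the CD3 gamma, delta and epsilon chains. The coreceptors CD8 and CD4 bind major histocompatibility molecules of class I and class II. NK cells and cytotoxic T cells kill target cells with granule proteases such as granzyme A (Gzma), and carry receptors such as CD94 (Klrd1). Transcripts of these genes are widely used to mark mature lymphocytes, which the lineage gate of an HSC sort is meant to remove.

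Nkg7 had by far the most reads among the 10 genes, and Cd3e the fewest. The stretches upstream of Nkg7, Gzma and Cd3e are shown because these were the 2 members with the highest level per length and the member with the lowest. They are RefSeq sequences (GRCm38.p6), cut so that they end before the start sites of both RefSeq and GENCODE, written 5′ to 3′ on the strand of the gene. Capitals mark GGAAG, an ETS-type core, and also TGTGGT, a RUNX-type core, where either lies on the printed or on the opposite strand. The windows are chr7:43436888-43437072 (plus strand), chr13:113100982-113101231 (minus strand) and chr9:45009628-45009861 (minus strand).
Nkg7: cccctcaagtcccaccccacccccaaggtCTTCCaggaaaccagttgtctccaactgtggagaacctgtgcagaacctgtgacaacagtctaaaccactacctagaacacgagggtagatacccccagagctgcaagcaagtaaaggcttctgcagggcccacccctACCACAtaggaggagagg
Gzma: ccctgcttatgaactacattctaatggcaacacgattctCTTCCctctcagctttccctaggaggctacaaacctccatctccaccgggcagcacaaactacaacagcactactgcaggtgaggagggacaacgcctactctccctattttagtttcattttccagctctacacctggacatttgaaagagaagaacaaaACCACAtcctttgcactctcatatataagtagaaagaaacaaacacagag
Cd3e: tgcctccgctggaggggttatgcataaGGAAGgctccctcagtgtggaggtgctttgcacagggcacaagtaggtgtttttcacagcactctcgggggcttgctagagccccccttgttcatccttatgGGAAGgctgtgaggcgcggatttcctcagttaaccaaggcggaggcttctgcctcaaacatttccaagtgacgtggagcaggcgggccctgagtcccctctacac
TGTGGT was found once in the Nkg7 window and once in the Gzma window, and not in that of Cd3e. Of 32851 mouse promoters, 10.7% hold it in a window of the Nkg7 length (185 bases) and 14.0% in one of the Gzma length (250 bases). GGAAG was found in all 3 windows, and 52.0% to 64.1% of promoters hold it at these lengths. The letters TATAAA, the CCAAT box and the GATA-type core GATAA, also searched on both strands, were not found in these 3 windows. Only TATAAA was searched for the TATA box, so its variant forms were not tested. These matches describe the sequence only.

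Total reads ranged from 16771180 to 18558610 per library, so 3 reads correspond to 0.166 to 0.183 CPM (reads per 1e+06 reads, on library sizes scaled by edgeR's TMM method). Cd38 itself, the check of the labels, was at 47.2 ± 10.7 CPM in CD38-positive against 27.9 ± 6.70 in CD38-negative libraries (SD, n = 3 each) and was higher in 3 of 3 pairs. Its fitted log2 fold change of 0.76 did not pass (edgeR adjusted p = 0.893) and was 0.50 to 0.95 when a pair was left out. All 10 genes of a stem cell marker list were detected, with Ly6a (Sca-1) at a mean of 75.1 CPM per kilobase of exon and Slamf1 (CD150) at 4.72. Granulocyte transcripts were also abundant: 10 neutrophil markers summed to between 70583 and 160069 CPM per library. Erythroid, monocyte, B and plasma cell, and innate lymphoid and mast cell markers summed to 2568 to 9130, 1082 to 2563, 374 to 2869 and 171 to 448 CPM. In such bulk libraries, fewer cells of a type and less RNA per cell cannot be told apart.

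The 10 members took 22102 reads over the 6 libraries, and Nkg7 alone took 91.3% of them. Their share of all reads was highest in the CD38-positive library of pair 1, at 0.0302% (95% Wilson interval 0.0294% to 0.0310%), and lowest in that of pair 2, at 0.0138% (0.0132% to 0.0144%). The other 9 members together took 0.00112% to 0.00241% of reads. These intervals treat each read as independent and leave out variation between pools. Reads lacking molecular identifiers can be copies of 1 molecule, so the intervals can be too narrow even for counting error. Nkg7 therefore sets the sum, and the members are described one group at a time.

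**Figure D1:**
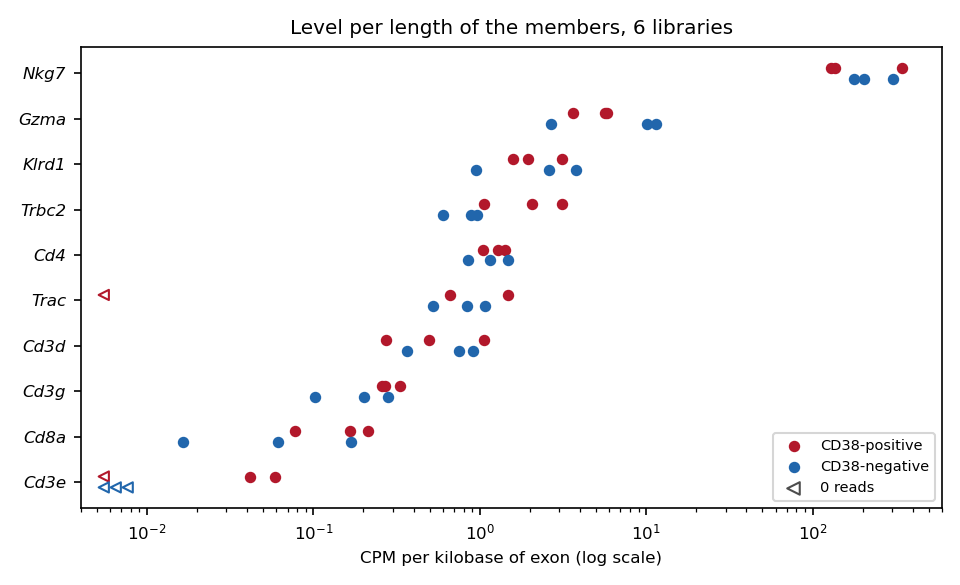
Level per length of the 10 members (CPM per kilobase of exon, log axis) in the 3 CD38-positive and 3 CD38-negative libraries; each point is 1 library and open triangles at the left edge are libraries with 0 reads. Nkg7 stands apart at 129 to 343, while the other 9 lie between 0 and 11.5.

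Per kilobase of exon, the members ran in the order Nkg7 (mean 216 CPM per kilobase over 6 libraries), Gzma (6.55), Klrd1 (2.33), Trbc2 (1.45), Cd4 (1.21), Trac (0.763), Cd3d (0.643), Cd3g (0.240), Cd8a (0.117) and Cd3e (0.0167). Nkg7 was 32.9-fold above Gzma and did not overlap it in any library. All other neighbours in this order overlapped in their ranges over the 6 libraries. Even so, Gzma was above Klrd1, Cd3d above Cd3g, Cd3g above Cd8a and Cd8a above Cd3e in 6 of 6 libraries. Trbc2 and Cd4, and Trac and Cd3d, could not be ordered, with the first above the second in 4 of 6 libraries for both couples. Among the 14785 genes that passed the filter on low counts, the mean level of Nkg7 lay at percentile 98.5, that of Gzma at 60.2 and that of Cd3g at 5.03. Nkg7 was also above each of the 10 stem cell markers on this scale.

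Nkg7 (ENSMUSG00000004612, GRCm38 chromosome 7, 43437073 to 43438249, plus strand) encodes a membrane protein of cytotoxic granules, and was also described as a transcript induced by granulocyte colony-stimulating factor. The CD38-positive libraries of pairs 1, 2 and 3 held 5231, 2090 and 2276 reads of it, and the CD38-negative ones 3113, 2937 and 4528. The 2 highest libraries were thus 1 of each population, and the groups overlapped. In CPM the means were 186 ± 111 and 209 ± 60.2 (SD, n = 3 each). Nkg7 was higher in the CD38-positive library of pair 1 (log2 difference 0.76) and lower in pairs 2 and 3 (-0.47 and -1.14). The fitted log2 fold change was -0.29 (SE 0.29), which did not pass in edgeR's quasi-likelihood test (adjusted p = 0.936).

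The summed neutrophil markers, though not each marker, ranked the libraries much as Nkg7 did. Nkg7 was at 314, 118 and 126 CPM in the CD38-positive libraries of pairs 1, 2 and 3, where the 10 neutrophil markers summed to 160069, 70583 and 92602 CPM. In the CD38-negative partners it was at 185, 163 and 277 CPM, beside neutrophil sums of 115723, 80065 and 128263. The same 3 libraries were highest, in the same order, in both measures, and the same library was lowest. The sum is carried mainly by S100a8 and Ngp, and other markers ranked the libraries differently: Lcn2 was lowest, at 1306 CPM, in the CD38-negative library of pair 3, where Nkg7 was second highest, and Ltf was lowest in the CD38-negative library of pair 2. The innate lymphoid and mast cell markers were highest in the CD38-negative library of pair 3 (448 CPM) and then in the CD38-positive library of pair 1 (431). The B and plasma cell markers summed to 1112, 374 and 497 CPM in CD38-positive libraries of pairs 1, 2 and 3, against 1728, 1239 and 2869. This sum, mostly from Igkc, Ighm and Jchain, was thus lower in every CD38-positive library than in any CD38-negative one. Of the 12 genes, 9 had lower and 3 higher fitted values, and 0 passed an adjusted p of 0.05 in edgeR. Among all tested genes, 50.1% were higher. None of the 10 neutrophil markers was at 0 in any library, and none passed an adjusted p of 0.05. Cd3d alone among the other members had the same 3 highest libraries as Nkg7 in the same order, at 1.92, 1.65 and 1.37 CPM. Its lowest was the CD38-positive library of pair 3. Over the 6 libraries the log2 CPM of Cd3d correlated with that of Nkg7 at 0.859 (Pearson), where the other members ran from -0.313 to 0.541. With the log2 of the neutrophil sum, Nkg7 correlated at 0.911 and Cd3d at 0.797. The part of any of these cell types, or of T cells, in the Nkg7 level was not tested.

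**Figure D2:**
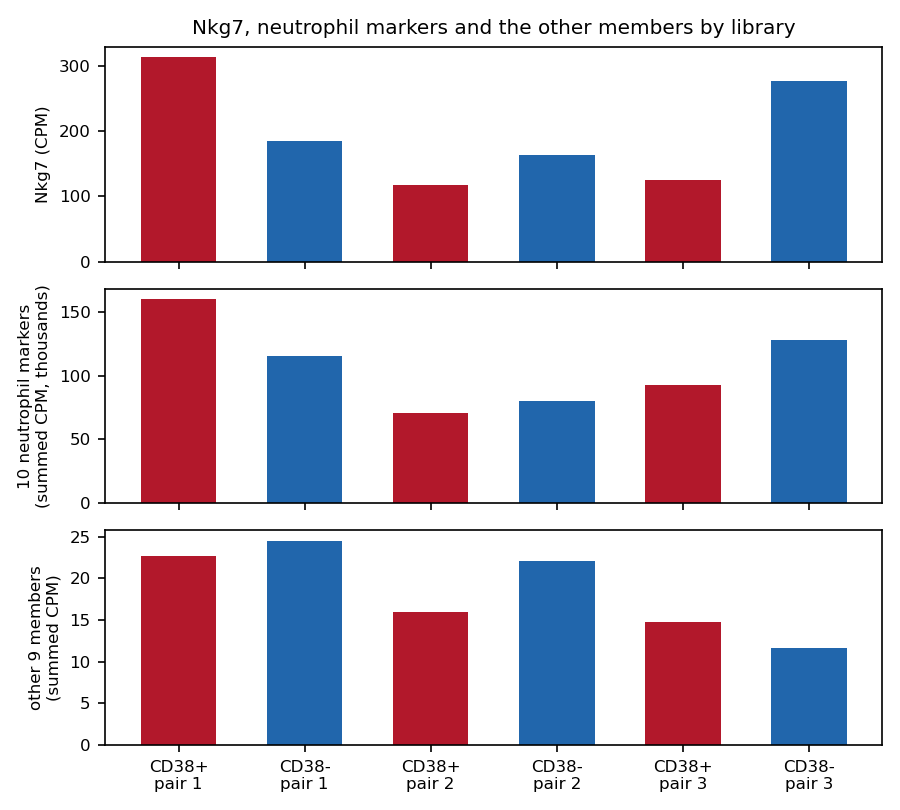
Nkg7 (CPM), the summed CPM of 10 neutrophil markers (axis in units of 1000) and the summed CPM of the other 9 members, 1 bar for each of the 6 libraries, CD38-positive in red and CD38-negative in blue. Nkg7 and the neutrophil sum are both highest in the CD38-positive library of pair 1 and then in the CD38-negative library of pair 3. In the latter the sum of the other 9, carried mainly by Gzma, Cd4 and Klrd1, is lowest at 11.6 CPM.

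Gzma and Klrd1, the other cytotoxic members, shared a pattern that differed from that of Nkg7. Gzma (chromosome 13, 113093825 to 113100981, minus strand) showed 98, 100 and 66 reads in CD38-positive libraries of pairs 1, 2 and 3, and 194, 182 and 44 in their partners. Klrd1 (chromosome 6, 129591782 to 129598775, plus strand) had 67, 44 and 37 reads against 81, 60 and 20. Both were lower in CD38-positive libraries in pairs 1 and 2 and higher in pair 3, so the groups overlapped. The CD38-negative library of pair 3, second highest for Nkg7, was the lowest of all for both genes. By pair, the log2 differences were -0.96, -0.83 and 0.42 for Gzma and -0.26, -0.41 and 0.69 for Klrd1. Fitted values on the log2 scale were -0.50 for Gzma (SE 0.33, edgeR adjusted p = 0.929) and -0.022 for Klrd1 (SE 0.39, edgeR adjusted p = 0.995).

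The genes of the CD3 chains lie together on chromosome 9, with Cd3g (44969572 to 44980431, minus strand) and Cd3d (44981786 to 44987339, plus strand) starting 1355 bases apart in opposite directions and Cd3e (44998740 to 45009627, minus strand) beyond them. Cd3e, whose product pairs with both the gamma and the delta chain, was found with 4, 3 and 0 reads in CD38-positive libraries of pairs 1, 2 and 3 and with 0 in all 3 CD38-negative ones. It was the 1 member that did not pass the filter on low counts, both group means were under 3 reads, and no fold change is given. Gm48719, an antisense gene that overlaps it, had 1 read in all libraries together. Cd3d, the delta chain, had 32, 16 and 9 reads in CD38-positive libraries against 23, 12 and 27. Cd3g, the gamma chain, had 18, 15 and 16 reads against 11, 6 and 15. Both were higher in the CD38-positive library in pairs 1 and 2, while in pair 3 Cd3d was lower (-1.53) and Cd3g nearly level (-0.049). Fitted log2 fold changes were -0.22 (SE 0.57) for Cd3d and 0.62 (SE 0.57) for Cd3g, with edgeR adjusted p of 0.971 and 0.936.

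The constant regions of the receptor chains were as scarce. Trbc2 (chromosome 6, 41546730 to 41548352, plus strand), the second beta constant region, showed 36, 13 and 26 reads in CD38-positive libraries of pairs 1, 2 and 3, and 7, 12 and 10 in their partners. It was the 1 tested member higher in all 3 pairs and the 1 whose groups did not overlap, although pair 2 differed by a single read. Among all tested genes, 13.2% were higher in all 3 pairs and 6.53% had groups that did not overlap. Its means were 1.44 ± 0.711 CPM against 0.565 ± 0.131 (SD, n = 3 each). The fit gave a log2 fold change of 1.24 (SE 0.58, edgeR unadjusted p = 0.0517, adjusted p = 0.926). Trbc1 lies beside it and is nearly identical in sequence, so the division of reads between them is uncertain; Trbc1 had 28, 16 and 11 reads against 21, 5 and 8 and was likewise higher in 3 of 3 pairs (0.75, edgeR adjusted p = 0.932).

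Trac (chromosome 14, 54220521 to 54224206, plus strand), the alpha constant region, had 23, 11 and 0 reads in CD38-positive libraries and 17, 14 and 8 in CD38-negative ones. The library with 0 Trac reads, CD38-positive of pair 3, had 26 Trbc2 reads, so the alpha and beta chains did not rank the libraries alike. A count of 0 there allows up to 0.166 CPM. The fitted log2 fold change of Trac was -0.60 (SE 0.74, edgeR adjusted p = 0.949).

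Of the coreceptors, Cd4 (chromosome 6, 124864692 to 124888221, minus strand) was the steadiest member, with 87, 75 and 103 reads in CD38-positive libraries and 78, 107 and 56 in CD38-negative ones. Its highest level was 1.74 times its lowest, and the groups overlapped (fitted log2 value 0.13, SE 0.34, edgeR adjusted p = 0.970). Cd8a (chromosome 6, 71373427 to 71379173, plus strand), the alpha chain of CD8, had 13, 5 and 11 reads against 1, 4 and 10, and its largest difference was in pair 1 (2.35). The fit gave it 0.99 on the log2 scale (SE 0.77, edgeR adjusted p = 0.932), and without pair 1 this was 0.13. Dendritic cells of some subsets also carry CD4 or CD8 alpha. The 12 dendritic cell markers summed to 529 to 595 CPM in CD38-positive and 524 to 740 CPM in CD38-negative libraries. Most of these sums came from Irf8, Cd74, H2-Aa and H2-Ab1, which other blood cells also express, and the 740 included 286 CPM of Cd74. The other 8 markers, a split made after the values were seen, summed to 25.3 to 37.4 CPM in CD38-positive and 14.7 to 36.0 CPM in CD38-negative libraries. Over the list, 8 of 12 fitted values were higher in CD38-positive libraries, where 50.1% of all tested genes were higher. The list median was 0.37 on the log2 scale, and 0 passed an adjusted p of 0.05 in edgeR. An unadjusted p under 0.05 was reached by 1 gene, against 5.08% of all tested genes. This was Irf8 (fitted value 0.87, edgeR unadjusted p = 0.00151), one of the broadly expressed genes. None of the 12 was at 0 in all libraries, although Itgax was at 0 in the CD38-negative library of pair 3, and their part in the coreceptor levels was not tested.

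**Figure D3:**
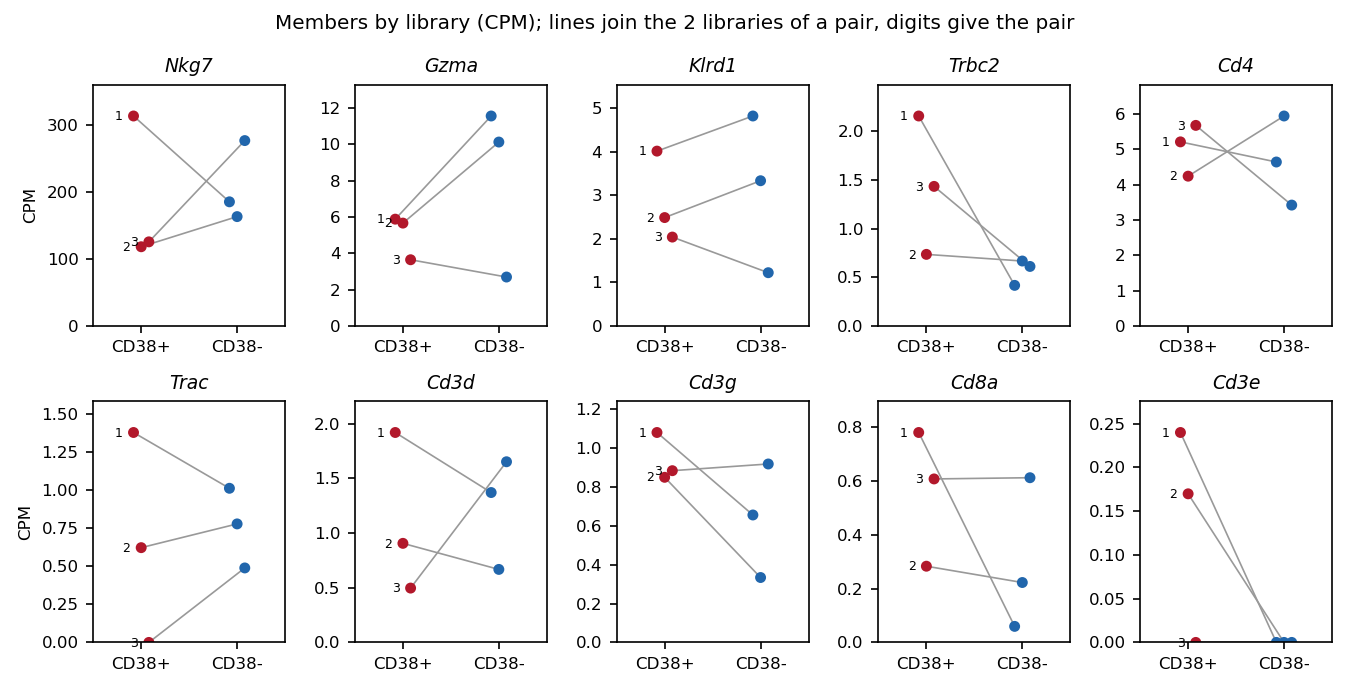
CPM of the 10 members in each library, with a line between the 2 libraries of a pair and the pair number beside the CD38-positive point; each vertical axis starts at 0 and has its own scale. Trbc2 is the member whose 3 CD38-positive points all lie above the 3 CD38-negative ones; for Nkg7 the line of pair 1 runs down and those of pairs 2 and 3 run up.

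Across the members, 0 of the 9 tested passed an adjusted p of 0.05 in edgeR's quasi-likelihood test with the pair as a block, where 0.0135% of all genes passed (2 of 14785). None of the 9 had an unadjusted p under 0.05, against 5.08% of all genes. DESeq2 and limma-voom with the same block also called 0 of the 9. Fitted values were higher in CD38-positive libraries for 4 members and lower for 5, and 50.1% of all tested genes were higher. The median log2 fold change of the members was -0.022, beside 0.00040 for all tested genes. Standard errors ran from 0.29 for Nkg7, the member with the most reads, to 0.77 for Cd8a on the log2 scale. The direction turned without pair 3 for Nkg7, Cd3d, Trac and Cd4, and without pair 1 or pair 2 for Klrd1. The replicates are pools of mice; the sources used here leave unsaid whether paired libraries share animals.

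**Figure D4:**
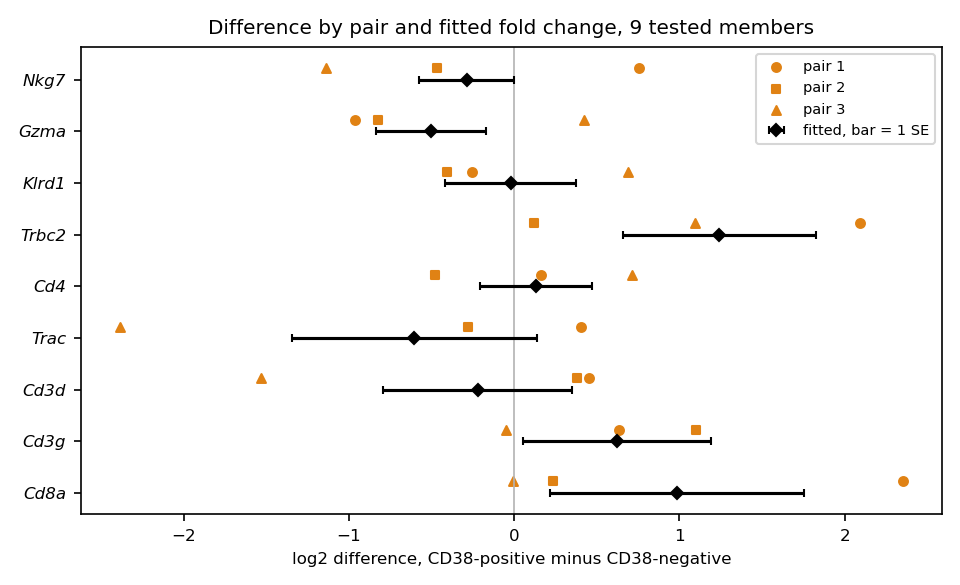
Log2 difference between the CD38-positive and CD38-negative library of each pair (orange, log2 CPM after adding a prior count of 2) and the fitted log2 fold change with 1 SE (black) for the 9 tested members. The pair 3 triangle lies on the other side of 0 from pairs 1 and 2 for Gzma, Klrd1 and Cd3d and, only just, for Cd3g and Cd8a, and all 3 symbols lie above 0 for Trbc2.

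A further 3 lists gave the other genes of these lineages. Of 29 genes of the T cell receptor and its signalling, 26 matched by symbol and 20 were tested. The unmatched symbols were Trgc1, Trgc2 and Trgc4. These gamma chain constant genes are thus left out of the list, and appear under the other observations as Tcrg-C1, Tcrg-C2 and Tcrg-C4. In this list 0 passed an adjusted p of 0.05, and at an unadjusted p under 0.05 there was 1 higher and 1 lower, against 2.47% of all tested genes higher and 2.61% lower. The median log2 fold change was 0.20, beside 0.00040 for all tested genes. In the list 13 fitted values were higher and 7 lower, where 50.1% of all tested genes were higher. Skap1, an adaptor of T cell signalling, was at 3.42 ± 0.268 CPM against 1.71 ± 0.544 (SD, n = 3 each), with log2 differences of 0.76, 0.78 and 1.45 by pair (edgeR unadjusted p = 0.0207, adjusted p = 0.925). Lat, the scaffold that links the receptor to downstream signals and also works in mast cells and platelets, had log2 differences of -0.18, -0.82 and -0.49 by pair. Its fitted value was -0.50 (edgeR unadjusted p = 0.0423, adjusted p = 0.926). Ccr7, a lymph node homing receptor, and Rasgrp1, a Ras activator, had fitted values of 0.95 and -1.19, both with an edgeR adjusted p of 0.926. The genes with the most reads in this list are shared with other blood cells. They were the adaptor Lcp2 at a mean of 211 CPM over 6 libraries, the phosphatase Ptpn22 at 60.2 and the kinase Prkcq at 54.5, with fitted values of -0.038, 0.0083 and 0.19.

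Of 28 NK and cytotoxic genes, 24 were tested and 0 passed an adjusted p of 0.05. At an unadjusted p under 0.05, 2 were higher and 1 lower, against 2.47% of all tested genes higher and 2.61% lower. The median was 0.040, with 13 fitted values higher and 11 lower, where 50.1% of all tested genes were higher. Styk1, a kinase-like protein of NK cells, had 32, 14 and 57 reads in CD38-positive libraries and 16, 3 and 0 in their partners. It was higher in 3 of 3 pairs, yet the groups overlapped, since 0.953 CPM in the CD38-negative library of pair 1 exceeded 0.792 in the CD38-positive library of pair 2. Its edgeR adjusted p was 0.893, and 0.0113 when no filter on low counts was used. Klra1, a Ly49 receptor gene whose reads can be shared with its close relatives, was at 0.861 ± 0.347 CPM against 2.29 ± 0.579 (SD, n = 3 each). It was lower in 3 of 3 pairs, as were 11.3% of all tested genes (fitted value -1.42, edgeR unadjusted p = 0.0130, adjusted p = 0.925). Gzmb, granzyme B, had 91, 96 and 8 reads against 51, 6 and 10, with log2 differences of 0.82, 3.63 and -0.38 by pair. Its fitted value of 1.47 (edgeR unadjusted p = 0.0411, adjusted p = 0.926) rested on pair 2, without which it was 0.39. Ccl5, a chemokine of cytotoxic lymphocytes, had a fitted value of -0.59 (edgeR adjusted p = 0.926). The most abundant genes of the list were Id2 (163 CPM), an inhibitor of E proteins, the interleukin-18 receptor subunit gene Il18rap (35.0) and the NK1.1 gene Klrb1c (13.6). Id2 alone was at 102 to 209 CPM per library, where the whole list summed to 207 to 333 CPM. The part of NK cells in these levels was not tested.

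Of 12 transcription factors and receptors of T cell development, 10 were tested and 0 passed. None had an unadjusted p under 0.05, against 5.08% of all tested genes. The median was -0.10. Ikzf1, the Ikaros gene active throughout blood formation, was at 126 ± 20.3 CPM against 149 ± 18.6 (SD, n = 3 each). It was lower in 3 of 3 pairs, as were 11.3% of all tested genes. Its fitted value was -0.25 (edgeR adjusted p = 0.932). Gata3, Notch1 and Lef1 had fitted values of -0.44, -0.31 and 0.46, and Ets1 was at 30.8 CPM over all libraries. Other genes of this list differed in their reads. Bcl11b had 0, 2 and 9 reads in CD38-positive and 0 in each CD38-negative library. Ptcra, which encodes the pre-T cell receptor alpha chain, had 0 in all 6. Tcf7 had reads in all 6, with 21, 24 and 14 in CD38-positive libraries and 16, 16 and 18 in their partners. Gzmk of the cytotoxic list also had 0 reads in every library.

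**Figure D5:**
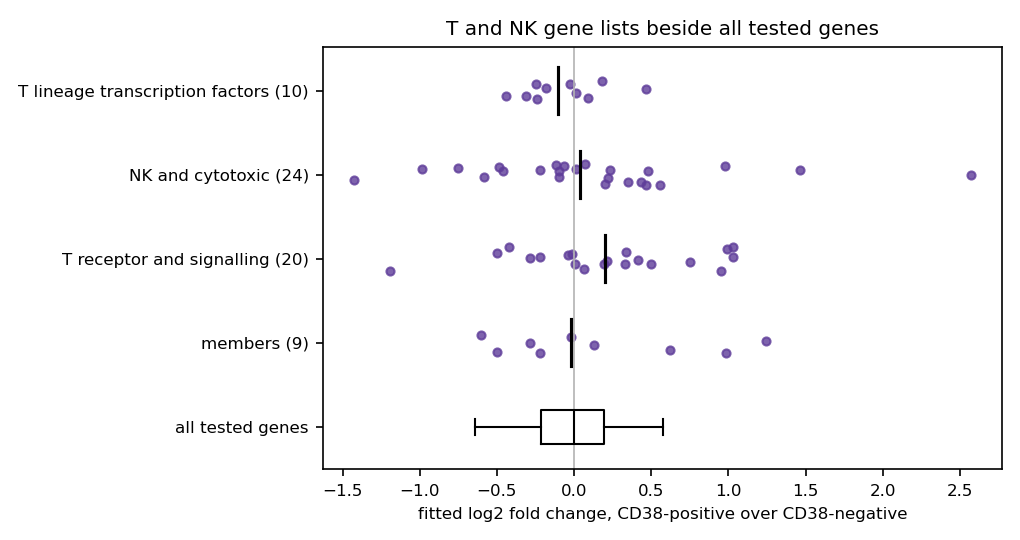
Fitted log2 fold change (CD38-positive over CD38-negative) of each tested gene of the members and of 3 wider lists (points, with the list median as a bar), beside all 14785 tested genes (box from percentile 25 to 75, whiskers at 5 and 95, centre line at the median). List medians lie between -0.10 and 0.20; Styk1 is the rightmost point at 2.57.

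The genes whose levels followed the summed members most closely over the 6 libraries were Coq7, Paqr3, Fis1 and Clic1. Pearson correlations of log2 CPM were 0.993, 0.992, 0.991 and 0.990, the highest of 14776 genes compared. With 6 libraries that share 1 scaling and a sum set by Nkg7, these values are a description only. Fis1, for example, was at 233, 165 and 176 CPM in the CD38-positive libraries and 201, 187 and 223 CPM in their partners. It is a mitochondrial fission gene with a fitted log2 fold change of -0.10. When Nkg7 was left out of the sum, a choice made after seeing the data, the 5 closest genes were Tpp2, Col8a1, Fip1l1, Gm26792 and Cbl.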

How the data were processed

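RNA of sorted HSCs was sequenced in 6 libraries, grouped by the population stated in the labels. The authors deposited raw read counts per Ensembl gene, 1 table per library, with no header. The submitters' processing notes name cutadapt, STAR, HTSeq 0.6.1p1 and GRCm38 (mm10); the annotation release and the strand setting are not given in the sources used here. Symbols matched 49326 of 49585 identifiers; coordinates and exon lengths came from GENCODE M21 (GRCm38).

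In R 4.3.3, filterByExpr kept 14785 genes, TMM scaled the libraries, and edgeR 4.0.16 fitted pair plus population by quasi-likelihood over all genes (Benjamini-Hochberg, threshold 0.05; log2 CPM used a prior count of 2). Standard errors derive from the quasi-F statistic. The pair comes from the design text; deviations of paired libraries from their group means correlated at 0.341, 0.118 and 0.240. The procedure was also run on simulated counts without a pair effect. Differences were planted only in genes with more reads than Cd3d, Cd3e, Cd3g, Trac, Trbc2 and Cd8a had. The simulation therefore does not measure the power to call these members. Alternatives used no block, DESeq2 1.42.0, limma-voom (limma 3.58.1), other scalings and filters, and left out each pair.

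The members and lists were chosen with earlier results of these data known. Besides the members, the text names up to 4 genes per wider list with the smallest p-values, up to 3 with the highest CPM, the 5 genes most like the summed members (1 of them is not reported here), and Cd38. Other genes are named after their values were seen, as list members with reads at or near 0, Tcf7 beside these, markers of stem cells and other cell types, or receptor genes.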

Additional observations from a re-analysis of the deposited data

How the results depend on the processing

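In edgeR with the replicate block, 2 of all genes passed the threshold. Without the replicate block it was 0 (417 genes had p under 0.05 before adjustment), with unscaled totals 0 (595 genes); it was 11 in DESeq2, 7 with DESeq2 size factors, 13 with a mean of at least 10 counts and 80 with no filter, and 3 to 25 when a pair was left out; the cause was not tested. Members called stayed at 0 under all 10 alternatives, with 0 or 1 at an unadjusted p under 0.05; in 5 of them that was Trbc2 (higher, among them without the block and without pair 2), without pair 1 it was Nkg7 (-0.80) and without pair 3 Gzma (-0.91), both lower. Of 89 alternative values of the 9 members, 83 kept their direction and 6 turned, each when a pair was left out. The log2 fold changes then ranged from -0.65 to 0.46 for Cd3d, -1.47 to 0.091 for Trac, -0.16 to 0.45 for Cd4, -0.80 to 0.15 for Nkg7 and -0.34 to 0.18 for Klrd1. The direction held but the size moved for Trbc2 (0.69 to 1.77), Cd8a (0.13 to 1.75), Cd3g (0.32 to 0.99) and Gzma (-0.91 to -0.24), and likewise for Gzmb (0.39 to 2.10), Styk1 (1.44 to 4.12) and Prkcq (0.010 to 0.46). In the wider lists 0 genes passed, except 1 with no filter (Styk1). Ptpn22 turned with unscaled totals (-0.011) and Ets1 without the block (0.047). Leaving out a pair gave -0.16 to 0.043 for Lcp2, -0.033 to 0.065 for Ptpn22, -0.45 to 0.26 for Il18rap, -0.57 to 0.085 for Notch1, -0.30 to 0.21 for Ets1, -0.27 to 0.077 for Coq7, -0.88 to 0.14 for Paqr3, -0.26 to 0.016 for Fis1 and -0.23 to 0.039 for Clic1. The mean log2 difference of the members' summed CPM was -0.28 (SD 0.88 over 3 pairs), -0.29 with unscaled totals, -0.078 without Nkg7, and -0.75 to 0.11 when a pair was left out. Cd3e could be fitted only with no filter, and Cd8a not with a mean of at least 10 counts. A count of 0 allows a level of up to 3 reads in that library.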

Other observations

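All annotated T cell receptor segments, taken by their annotation class after the members' values were seen, gave few reads. The 8 constant region genes had 400 reads over the 6 libraries, from 34 to 157 per library. The CD38-positive library of pair 1 held the 157, and the next highest, CD38-positive of pair 2, had 72. The gamma chain constant genes Tcrg-C1, Tcrg-C2 and Tcrg-C4 contributed 40, 13 and 13 reads to the 157. In the CD38-positive library of pair 3, Trac, Trdc and all 4 gamma constant genes had 0 reads, while Trbc1 and Trbc2 had 11 and 26. Of 144 variable region genes, 39 had any read, 183 reads in all, and Trbv1 had the most with 27. Variable region reads, pseudogenes included, numbered 25 to 40 per library, without a wide gap between libraries. These sums were not tested.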
